A study of Homo sapiens with 4 samples.

Results

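The genes described here are the keratins KRT7, KRT8, KRT18, KRT19, KRT80 and KRT81 and the mesenchymal filament gene VIM, 7 of the 20323 genes in the deposited table, in HT-1080 cells, a human fibrosarcoma line. The rows were taken by gene symbol, and the members were chosen by their TPM levels and differences in these same libraries, as known from earlier results, so their values are a description and carry no test. RNA-seq of polyadenylated RNA gave 4 libraries. The controls, control 1 and control 2, carried the non-targeting genotype sgNC, another library the guide genotype sgPKA (protein kinase A) and the last sgALKBH5 (an RNA m6A demethylase). All 4 came from the same line in the same serum-containing medium, and the labels do not say whether the libraries are clones, pools or separate cultures, nor which PKA subunit was targeted. Each knockout had 1 library, so a difference from the controls has no replicate check, and ± gives the SD of the 2 controls.

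Intermediate filaments give cells mechanical strength. Keratin filaments form only from a type I and a type II chain together, and keratin 8 (type II, KRT8) with keratin 18 (type I, KRT18) is the pair of simple epithelia. KRT7 and KRT19 belong to simple and ductal epithelia, KRT80 is a type II keratin found in many epithelia, and KRT81 is a type II keratin of the hair cortex. Vimentin, a type III protein, builds its own filaments in mesenchymal cells and is a well-known substrate of protein kinase A. Levels below are TPM, transcript abundances corrected for gene length and library size.

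Each guide's library was the lowest for a gene of its label. PRKACA, the gene of a PKA catalytic subunit, was at 60.5 and 70.1 TPM in the controls, 10.6 TPM in sgPKA and 70.9 TPM in sgALKBH5, while ALKBH5 was at 80.2, 67.6, 67.1 and 37.5 TPM in the same order. Total counts ran from 14050867 to 25937347 per library. Over 11629 genes with a mean of at least 1 TPM, log2(TPM + 1) of the controls differed with an SD of 0.585. The SD was less, 0.390, for sgALKBH5 set against control 1, and 0.547 for sgPKA set against control 2, so the controls were not each other's nearest library. In edgeR's quasi-likelihood test, 0 of 13061 genes (0%) passed an adjusted p of 0.05 for either knockout. Before adjustment, 1184 genes for sgPKA and 369 for sgALKBH5 had a p under 0.05. DESeq2 called 114 and 33 genes, and limma 0 and 0. Genes at least 2-fold from both controls on log2(TPM + 1) numbered 121 higher and 162 lower in sgPKA, or 73 higher and 198 lower with TPM rescaled by count-based factors, and 120 higher and 56 lower in sgALKBH5. The median gene lay 0.15 above the control mean in sgPKA on the TPM scale and -0.03 from it on the count scale, which matters for VIM below.

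The labelled cell type was checked on marker genes. Of 10 mesenchymal markers 9 had a mean of at least 1 TPM, THY1 being at most 0.226 TPM. The summed level of the 10 ran from 9036 to 12658 TPM. VIM, itself a member, is among the 10 and held most of each sum, at 6729.6 to 7853 TPM. The sum therefore says little about the other markers, some of which differed between the controls, as given further on. Of 8 epithelial markers only CLDN4 had such a mean. The epithelial adhesion gene EPCAM, CLDN3 and GRHL2 were at 0 TPM in every library, and the epithelial cadherin CDH1 was at 0 TPM except for 0.128 TPM in sgALKBH5. The summed level of the 8 was 4.13 and 7.28 TPM in the controls, 2.43 TPM in sgPKA and 3.62 TPM in sgALKBH5. No marker of blood, endothelial or muscle cells passed 0.929 TPM in any library. Keratin transcripts were thus abundant in cells with EPCAM, CLDN3 and CDH1 at or near 0, while some desmosome and tight junction genes, given further on, were expressed. Fewer cells with keratin RNA and less keratin RNA per cell cannot be told apart in these bulk libraries.

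**Figure D1:**
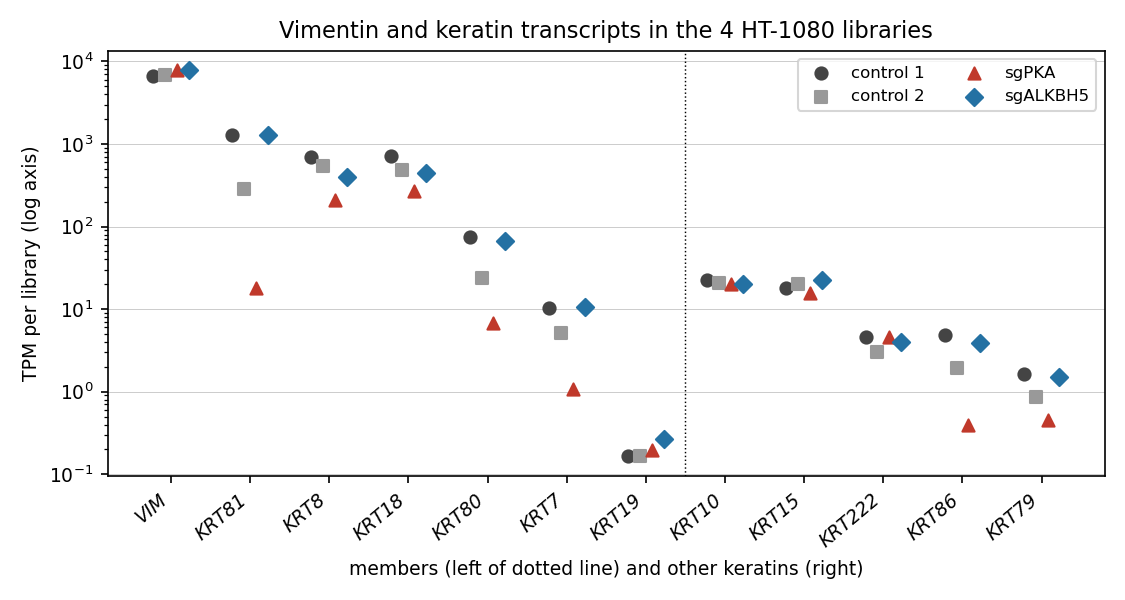
Level of each member (left of the dotted line) and of the other keratins with a mean of at least 1 TPM (right), in TPM on a log axis, with 1 point per library. VIM lies between 6729.6 and 7853 TPM in every library, while KRT81 spans 18.1 to 1299.9 TPM.

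Vimentin was the most abundant member and the most even. VIM (ENSG00000026025, chr10:17228241-17237593, GRCh38.p14) was at 6729.6 and 6839.5 TPM in the controls, 7839 TPM in sgPKA and 7853 TPM in sgALKBH5, and ranked 9 among all gene symbols by mean TPM. Both knockouts lay above both controls in TPM, by 0.21 in log2(TPM + 1) for sgPKA and 0.21 for sgALKBH5. On normalised counts this excess was not seen for sgPKA, with a log2 fold change of 0.02 (SE 0.18) that turned to -0.039 without control 1, and it was 0.15 (SE 0.18) for sgALKBH5. In CPM after TMM normalization, VIM was at 6828 and 7396 in the controls, 7201 in sgPKA and 7873 in sgALKBH5, so sgPKA lay between the controls.

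The start region of VIM, plus strand of chr10:17227991-17228290 (RefSeq, GRCh38.p14, from 250 bases before to 50 after the start site), is shown as that of the member that hardly varied. KRT8 follows as the other member of the 7 with such a window, on the minus strand of chr12:52926420-52926719. Capitals mark the matches found.
VIM: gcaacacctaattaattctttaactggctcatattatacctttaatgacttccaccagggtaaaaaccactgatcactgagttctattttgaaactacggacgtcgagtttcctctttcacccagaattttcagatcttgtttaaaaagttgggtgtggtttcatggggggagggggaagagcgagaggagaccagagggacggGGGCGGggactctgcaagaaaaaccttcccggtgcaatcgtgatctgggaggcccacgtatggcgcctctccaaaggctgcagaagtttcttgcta
KRT8: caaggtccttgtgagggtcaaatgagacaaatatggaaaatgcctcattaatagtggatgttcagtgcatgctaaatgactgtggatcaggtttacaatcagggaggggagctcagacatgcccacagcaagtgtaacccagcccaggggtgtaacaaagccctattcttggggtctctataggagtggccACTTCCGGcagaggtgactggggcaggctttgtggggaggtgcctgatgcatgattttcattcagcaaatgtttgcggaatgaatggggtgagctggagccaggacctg
Searched on both strands were the letters of the cAMP response element (TGACGTCA), AP-1 (TGANTCA), the GC box (GGGCGG), the TATA box (TATAAA) and an ETS site (CCGGAAGT), and the site of NF-kB. VIM holds 1 GC box, at -46 from the start site, which 45% of 35116 windows of the same length also hold. KRT8 holds 1 ETS match, at -59, against 4.14% of windows. Neither window holds the cAMP response element, which 1.85% of windows do, nor AP-1, which 7.71% do, the TATA box (11.5%) or NF-kB (0.558%). Both genes have several annotated start sites, and the deposited table does not say which was in use.

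KRT8 and KRT18, the simple epithelial pair, were the main keratins that all 4 libraries shared. KRT8 (ENSG00000170421, chr12:52897191-52949860) was at 686 TPM in control 1 and 546 TPM in control 2, against 209 TPM in sgPKA and 395 TPM in sgALKBH5. KRT18 (ENSG00000111057, chr12:52948855-52952906) was at 706, 477, 269 and 441 TPM in the same libraries. Both genes had the order control 1, control 2, sgALKBH5, sgPKA, with sgPKA lowest and no overlap with the controls. The mean of the controls was 616 ± 99.3 TPM for KRT8 and 592 ± 162 TPM for KRT18 (SD, n = 2).

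Against each control in turn, KRT8 was 3.28-fold and 2.61-fold lower in sgPKA, and KRT18 2.63-fold and 1.78-fold lower. The count-based log2 fold changes were -1.74 (SE 0.24) for KRT8 and -1.32 (SE 0.30) for KRT18. In sgALKBH5 the differences were smaller, with log2 fold changes of -0.69 (SE 0.23) and -0.48 (SE 0.29). KRT18 in sgALKBH5 lay 0.12 below control 2 in log2(TPM + 1), less than the 0.56 between the controls.

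The ratio between the transcripts of this pair varied less over the libraries than their levels did. KRT8 per KRT18 in TPM was 0.972 and 1.14 in the controls, 0.779 in sgPKA and 0.897 in sgALKBH5. Set against VIM of the same library, which removes any scaling between libraries, the log2 ratio of KRT8 to VIM was -3.29 and -3.65 in the controls, -5.23 in sgPKA and -4.31 in sgALKBH5. For KRT18 it was -3.25, -3.84, -4.87 and -4.16. Both ratios were lowest in sgPKA, by 1.76 and 1.32 below the control mean.

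KRT81, the hair keratin, was the member that differed most, and it did so between the controls as well. KRT81 (ENSG00000205426, chr12:52285913-52291534) was at 1299.9 TPM in control 1 and 283 TPM in control 2, against 18.1 TPM in sgPKA and 1286 TPM in sgALKBH5. In control 1 and sgALKBH5 it exceeded KRT8, with 1.89 and 3.25 KRT81 per KRT8, and in sgPKA it was far below, at 0.0865. The deposited counts behind these levels were 24776.84, 5688.78, 256.98 and 33941.48, and the exact 95% Poisson interval in sgPKA, rounded to 257 counts, runs from 16.0 to 20.5 TPM, for counting error only.

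KRT81 was 71.7-fold lower in sgPKA than in control 1 and 15.6-fold lower than in control 2, while the controls differed 4.60-fold. The count-based log2 fold change of sgPKA was -5.61 (SE 1.21), -4.20 without control 1 and -6.31 without control 2. That of sgALKBH5 was 0.67 (SE 0.86), and it rested on the control used, being 2.08 without control 1 and -0.032 without control 2.

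KRT81 has a near copy, KRT86, whose span on the other strand encloses it. The coding sequences of both (GENCODE release 29) were identical at 94.2% of 1454 aligned bases, with an unbroken identical run of 605 bases. Of the 100-base windows of the KRT81 transcript, 29.4% also occur in KRT86. The 60 coding bases at which the pair differs most lie at positions 1249 to 1308, counted from the start codon in each. Reads that fall wholly in the identical run cannot separate the pair. These 60 bases are the best case, shown with the 14 differences in capitals.
KRT81: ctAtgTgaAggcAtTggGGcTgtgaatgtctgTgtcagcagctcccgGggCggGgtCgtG
KRT86: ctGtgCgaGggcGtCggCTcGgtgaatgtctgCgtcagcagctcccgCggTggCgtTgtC
KRT86 received 101.14 and 42.10 counts in the controls, 6.02 in sgPKA and 112.46 in sgALKBH5, or 0.408%, 0.740%, 2.34% and 0.331% of the KRT81 counts. These counts are not whole, so reads were divided between genes, and how much of KRT86 (4.89, 1.93, 0.392 and 3.93 TPM) is KRT81 signal was not tested. Even if all KRT86 counts were added, KRT81 in sgPKA would change by 2.34%.

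KRT80 and KRT7 were also lowest in sgPKA, and also lower in control 2 than in control 1. KRT80 (ENSG00000167767, chr12:52168996-52192014) was at 75.2 TPM in control 1 and 23.8 TPM in control 2, against 6.84 TPM in sgPKA and 66.6 TPM in sgALKBH5. KRT7 (ENSG00000135480, chr12:52233243-52255853) was at 10.5, 5.135, 1.09 and 10.8 TPM. As with KRT81, sgALKBH5 stood beside control 1, with control 2 lower and sgPKA lowest. KRT7 in sgPKA rested on 13 counts, with an exact 95% Poisson interval of 0.579 to 1.86 TPM.

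KRT80 was 10.99-fold below control 1 and 3.48-fold below control 2 in sgPKA, and KRT7 9.62-fold and 4.72-fold. The log2 fold changes were -3.02 (SE 0.81) for KRT80 and -3.01 (SE 0.69) for KRT7. Without control 1 they were -2.03 and -2.47, and without control 2 -3.60 and -3.40. In sgALKBH5 they were 0.39 (SE 0.67) for KRT80, which turned to -0.19 without control 2, and 0.41 (SE 0.56) for KRT7, which was 0.022 without control 2. Without control 1 these values for sgALKBH5 were 1.38 and 0.96.

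KRT19, a type I keratin of ductal epithelia (ENSG00000171345, chr17:41523617-41528308), was near the limit of detection. It had 2 counts in each control and in sgPKA and 5 counts in sgALKBH5, or 0.165 to 0.267 TPM. The values in the controls and sgPKA lie under a floor of 3 counts, so no fold is given, and KRT19 passed no filter on low values.

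**Figure D2:**
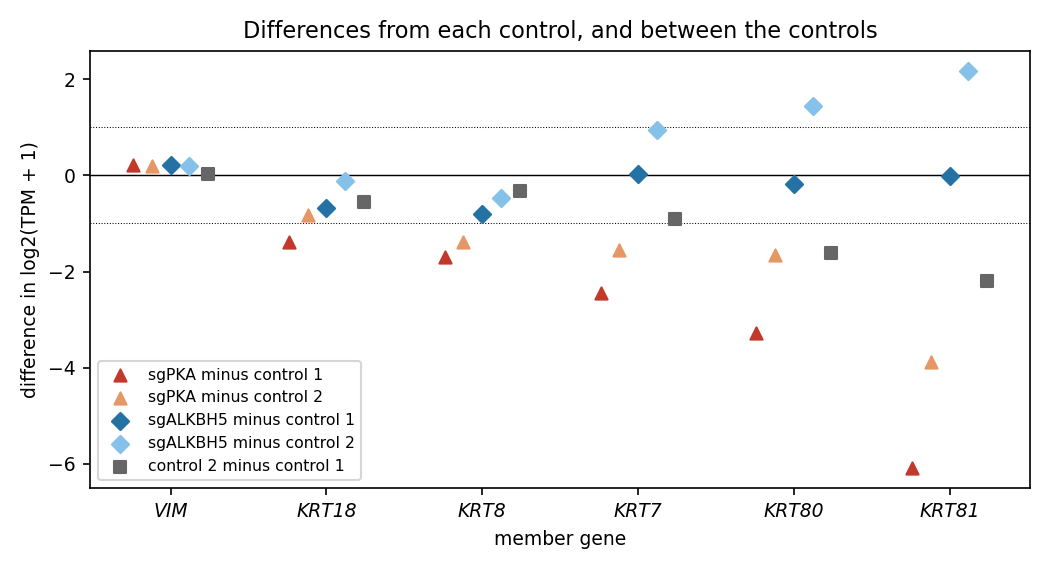
Difference in log2(TPM + 1) of each knockout from each control, and of control 2 from control 1, for the 6 members with a mean of at least 1 TPM, with dotted lines at a 2-fold difference. For KRT80 and KRT81 control 2 lies at -1.62 and -2.20 from control 1, and sgPKA lies lower still.

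Counted over the members, 6 of 7 had a mean of at least 1 TPM, and the counts below are over these 6. In sgPKA 4 of 6 (KRT7, KRT8, KRT80 and KRT81) lay at least 2-fold below both controls, against 1.39% of all 11629 genes, and 0 lay at least 2-fold above both, against 1.04%. Below both controls by any amount were 5 of 6, against 26.9% of genes, and above both was VIM, against 50.3%. This comparison was in view when the members were listed, so nothing is read from the counts.

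In sgALKBH5 0 of 6 lay at least 2-fold below both controls, against 0.482% of genes, and 0 at least 2-fold above both, against 1.03%. Below both by any amount were KRT8 and KRT18, against 27.5% of genes, and above both were KRT7 and VIM, against 39.1%. Without control 1, 2 members (KRT80 and KRT81) were at least 2-fold above control 2 in sgALKBH5, as were 717 of all 11629 genes. Both knockouts were compared with the same controls. The median difference of the 6 from the control mean was -1.77 in sgPKA and 0.35 in sgALKBH5, where all genes had medians of 0.15 and 0.05.

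The controls differed from each other too. KRT80 and KRT81, 2 of the 6, lay at least 2-fold lower in control 2 than in control 1, against 4.5% of genes, and 0 at least 2-fold higher, against 1.91%. Comparing the knockouts directly, 3 of 6 (KRT7, KRT80 and KRT81) were at least 2-fold lower in sgPKA than in sgALKBH5, against 7.09% of genes, and 0 at least 2-fold higher, against 5.68%. KRT8 was 1.89-fold and KRT18 1.64-fold lower. VIM was 1.002-fold higher in sgALKBH5 than in sgPKA.

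**Figure D3:**
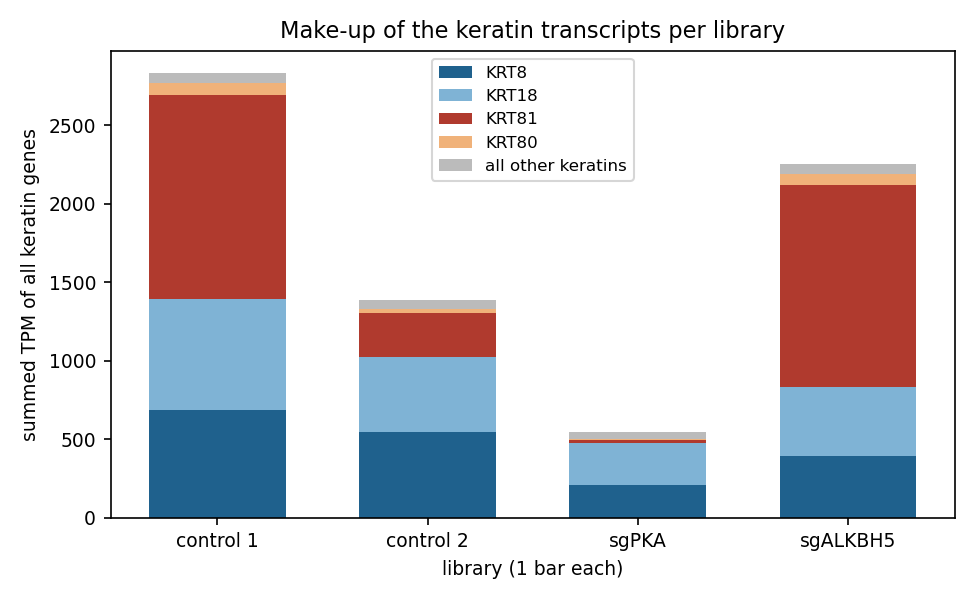
Summed TPM of all 55 keratin genes in each library, divided by gene, with KRT7, KRT19 and the other keratins in grey. KRT81 makes up 45.9%, 20.4%, 3.30% and 57.0% of the sum in control 1, control 2, sgPKA and sgALKBH5.

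The make-up of the keratin transcripts differed as well as their amount. All 55 keratin genes of the table summed to 2833 TPM in control 1 and 1385 TPM in control 2, against 548 TPM in sgPKA and 2256 TPM in sgALKBH5. KRT8 and KRT18 were 49.1%, 73.9%, 87.2% and 37.0% of the sum, so the library with the lowest sum was the one most made of the simple epithelial pair. Without KRT81 the sums were 1533, 1102, 530.2 and 969.8 TPM, so sgALKBH5 came below both controls.

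Type II keratins outnumbered type I in 3 libraries. Type II transcripts per type I transcript were 2.76 in control 1, 1.64 in control 2 and 3.62 in sgALKBH5, and 0.759 in sgPKA. Much of this excess was KRT81 alone. In control 1, control 2 and sgALKBH5 the type II sums were 2079.5, 861 and 1768 TPM. Of these, KRT81 made up 1299.9, 283 and 1286 TPM, and the type I sums were 753, 524 and 489 TPM. Because type I and type II chains pair in equal numbers in a filament, a ratio near 1 would be an even supply of transcripts. VIM outnumbered all keratins together 2.38-fold, 4.94-fold, 14.3-fold and 3.48-fold in control 1, control 2, sgPKA and sgALKBH5.

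Other keratins were few. Of the 55 genes, 25 were at 0 counts in all 4 libraries and 10 had a mean of at least 1 TPM, of which 5 are no members. Of the type I keratins, KRT10, a keratin of the upper epidermis, was at 22.6 and 20.8 TPM in the controls, 20.4 TPM in sgPKA and 20.1 TPM in sgALKBH5. KRT15, a basal epidermal keratin, was at 17.8, 20.1, 15.6 and 22.3 TPM, and KRT222, a keratin-like gene, at 4.63, 2.999, 4.63 and 3.95 TPM. These 3 differed little between libraries, and 0 lay at least 2-fold from both controls. Of the type II keratins, KRT79, a skin keratin, was at 1.62, 0.858, 0.448 and 1.51 TPM, and KRT86, given above, lay at least 2-fold below both controls in sgPKA. KRT18 and the type II keratins with such a mean share 1 stretch of chromosome 12. Of these, KRT7, KRT8, KRT18, KRT80 and KRT81 were chosen with their differences known, so nothing is read from this about the class. In sgPKA, KRT86 and KRT79 rested on 6.02 and 7 counts.

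**Figure D4:**
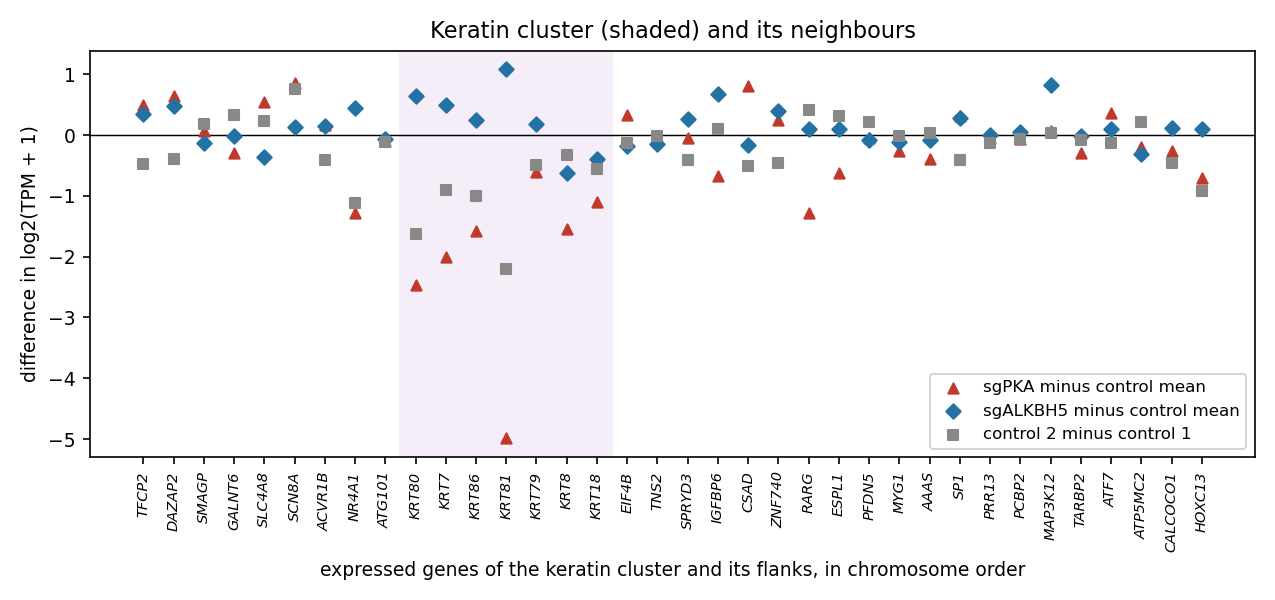
Difference in log2(TPM + 1) of each knockout from the control mean, and of control 2 from control 1, for genes with a mean of at least 1 TPM in the keratin cluster of chromosome 12 (shaded) and its flanks, in chromosome order. All 7 shaded keratins lie below 0 in sgPKA, and the median of the 29 flanking genes is -0.05. All 7 also lie below both controls there, against 26.9% of all genes. KRT7, KRT8, KRT18, KRT80 and KRT81 were chosen with these differences known, so the contrast with the flanks is no test.

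That stretch runs over 0.784 Mb from KRT80 at one end to KRT18 at the other, chr12:52168996-52952906. The neighbouring genes were examined after the keratin values were seen. There were 29 other genes with a mean of at least 1 TPM inside it or within 1 Mb on either side. Of these, 1 (RARG, a retinoic acid receptor gene) lay at least 2-fold below both controls in sgPKA, against 1.39% of all genes. At least 2-fold above both were 0, against 1.04%. The median difference of the 29 from the control mean was -0.05. EIF4B, a translation factor gene next to KRT18, was at 452 and 414 TPM in the controls, 541 TPM in sgPKA and 379 TPM in sgALKBH5. ATG101, an autophagy gene on the other side of KRT80, was at 91.4, 84.6, 82.0 and 83.7 TPM. Other flanking genes varied more. NR4A1, a nuclear receptor gene beyond ATG101, was at 6.35 and 2.39 TPM in the controls, 1.05 TPM in sgPKA and 5.79 TPM in sgALKBH5, the library order seen for KRT80 and KRT81. RARG was at 38.9, 52.3, 18.03 and 48.1 TPM, and IGFBP6, the gene of an IGF-binding protein, at 46.8, 50.3 and 29.9 TPM in the controls and sgPKA and at 78.1 TPM in sgALKBH5. HOXC13, a known activator of hair keratin genes that lies in the same flank, was at 11.9 and 5.86 TPM in the controls, 4.79 TPM in sgPKA and 9.06 TPM in sgALKBH5.

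Overlaps and copies limit how exactly some members were counted. KRT8 and KRT18 lie head to head on opposite strands and overlap by 1006 bases, and 16.6% of the 100-base windows of the KRT18 transcript occur in transcripts of KRT8, on either strand. Of the KRT8 windows, 7.56% occur in processed pseudogenes that are not in the table. With windows of 50 bases the shares with any other gene were 41.3% for KRT8 and 47.6% for KRT18. VIM shares 29.3% of its 100-base windows with antisense transcripts at its start, and KRT7 7.67% with an antisense gene, while KRT80 shares 0%. The sources used here do not give strand use or read length, and sense and antisense reads cannot be told apart.

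Genes with profiles most like the pair KRT8 and KRT18 were found by the distance between centred log2(TPM + 1) values over the 4 libraries, among 9296 genes with a mean of at least 5 TPM. The 5 nearest were MTFP1, PLAT, PSD4, SPP1 and ZNF395, at distances of 0.253 to 0.361, where the profile of the pair itself has a size of 1.13. PLAT, the tissue plasminogen activator, was at 110 and 91.4 TPM in the controls, 45.1 TPM in sgPKA and 59.8 TPM in sgALKBH5. MTFP1, a mitochondrial fission gene, was at 61.5, 45.1, 21.2 and 45.4 TPM. KRT7, KRT80 and KRT81 were not among the near ones, at distances of 1.24, 1.82 and 4.05. This distance counts the size of the differences as well as their order. The nearly even VIM, at 1.31, lay nearer the pair than KRT80 and KRT81 did.

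The 5 nearest to KRT81 were CA9, HBE1, BEX1, FPR1 and PLPPR2, at distances of 0.664 to 1.60 for a profile of size 4.97. CA9, a carbonic anhydrase induced by hypoxia, was at 89.9, 17.7, 1.22 and 121 TPM in control 1, control 2, sgPKA and sgALKBH5. HBE1, the embryonic globin gene, was at 186, 32.5, 3.69 and 213 TPM. All 5 were high in control 1 and sgALKBH5, lower in control 2 and lowest in sgPKA, and KRT80 ranked 35 by this distance and KRT7 80. Likeness here is a description of 4 points.

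**Figure D5:**
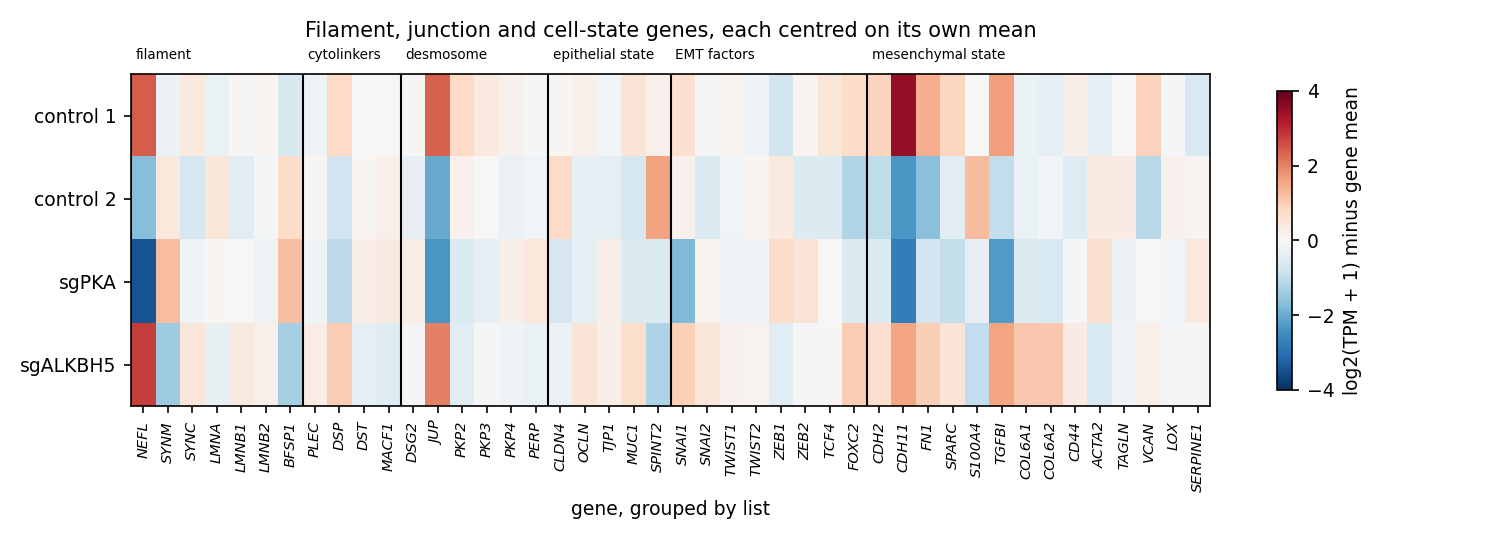
Centred log2(TPM + 1) of filament, cytolinker, desmosome, epithelial, EMT factor and mesenchymal genes with a mean of at least 1 TPM, per library, with colour showing the distance from the gene's own mean and DSP drawn once. NEFL, JUP, CDH11 and TGFBI are high in control 1 and sgALKBH5 and low in control 2 and sgPKA.

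Among the other intermediate filament genes, 7 of 15 had a mean of at least 1 TPM. Their median difference from the control mean was -0.03 in sgPKA and 0.21 in sgALKBH5, against 0.15 and 0.05 for all genes. LMNA, which encodes the nuclear lamins A and C, was the highest at 759 and 1277 TPM in the controls, 967 TPM in sgPKA and 754 TPM in sgALKBH5. LMNB2, a B-type lamin gene, was at 216, 190.2, 174 and 234 TPM. NEFL, the light neurofilament gene, was the 1 gene at least 2-fold below both controls in sgPKA, against 1.39% of all genes. It was at 60.1 and 2.49 TPM in the controls, 0.038 TPM in sgPKA (1 count) and 77.4 TPM in sgALKBH5. SYNM, which encodes synemin, a partner of vimentin filaments, was at 1.94, 3.64, 7.17 and 0.283 TPM. It was the 1 gene at least 2-fold below both controls in sgALKBH5, against 0.482% of all genes.

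Genes that anchor filaments held no member of the 2-fold counts, which few genes of any kind entered. Of all genes, 1.39% lay at least 2-fold below both controls in sgPKA and 1.04% above, and in sgALKBH5 0.482% and 1.03%. A count of 0 in lists this short is therefore no result about them. Of the cytolinkers, 4 of 7 were expressed at a mean of at least 1 TPM and 0 lay at least 2-fold from both controls in either knockout, with medians of 0.06 and 0.00 from the control mean in sgPKA and sgALKBH5. PLEC, whose product plectin ties vimentin and keratin filaments to other structures, was at 183 and 220.4 TPM in the controls, 189 TPM in sgPKA and 263 TPM in sgALKBH5, and MACF1, a linker of actin and microtubules, at 82.3, 96.5, 106 and 57.5 TPM. Of the desmosome genes, whose junctions anchor keratin, 7 of 14 were expressed and 0 lay at least 2-fold from both controls, with medians of -0.51 and -0.09. PERP, a desmosomal membrane protein gene, was at 83.4, 79.2, 114 and 71.4 TPM, and DSG2, a desmosomal cadherin gene, at 24.1, 18.4, 28.8 and 22.6 TPM. By any amount, 4 of the 7 (PKP2, PKP3, JUP and DSP) lay below both controls in sgPKA, against 26.9% of all genes. The other 3 (PERP, DSG2 and PKP4) lay above both, against 50.3%. In sgALKBH5 3 lay below both and 1 above, against 27.5% and 39.1%.

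Genes of epithelial and of mesenchymal state were counted apart. Of 23 epithelial state genes 5 were expressed, with medians of -0.46 in sgPKA and 0.46 in sgALKBH5. The tight junction genes TJP1, which encodes a scaffold protein, and CLDN4, a claudin gene, had the highest means of these. TJP1 was at 13.0 and 10.9 TPM in the controls, 16.8 TPM in sgPKA and 16.8 TPM in sgALKBH5, and CLDN4 at 3.87, 7.04, 1.86 and 2.94 TPM. SPINT2, a protease inhibitor gene, was the 1 gene at least 2-fold below both controls in sgALKBH5, against 0.482% of all genes. It was at 1.68 and 6.15 TPM in the controls, 0.546 TPM in sgPKA and 0 TPM in sgALKBH5. These levels rested on only 7, 27, 5 and 0 counts.

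Of 9 transcription factors of the epithelial to mesenchymal transition, 8 were expressed, with medians of -0.04 and 0.17. SNAI1, which encodes the repressor Snail, was the 1 factor at least 2-fold below both controls in sgPKA, against 1.39% of all genes. It was at 19.4 and 13.8 TPM in the controls, 2.87 TPM in sgPKA and 24.6 TPM in sgALKBH5. TWIST2 was at 44.5, 53.6, 44.8 and 54.9 TPM. By any amount, 2 of the 8, SNAI1 among them, lay below both controls in sgPKA, against 26.9% of all genes. Another 3 (SNAI2, ZEB1 and ZEB2) lay above both, against 50.3%. ZEB1 was at 2.87 and 7.36 TPM in the controls, 9.72 TPM in sgPKA and 3.805 TPM in sgALKBH5. ZEB2 was at 7.35, 4.425, 10.6 and 6.56 TPM in the same order. So the library with the least keratin RNA had the least SNAI1 but the most ZEB1 and ZEB2.

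Of 15 mesenchymal state genes 14 were expressed, with medians of -0.39 in sgPKA and 0.37 in sgALKBH5. In sgPKA 8 of the 14 lay below both controls by any amount and 2 above, against 26.9% and 50.3% of all genes, and in sgALKBH5 3 lay below and 3 above, against 27.5% and 39.1%. TGFBI, a matrix protein gene, was the 1 gene at least 2-fold below both controls in sgPKA, against 1.39% of all genes. It was at 203, 31.5, 12.1 and 188 TPM in control 1, control 2, sgPKA and sgALKBH5. In sgALKBH5 the collagen VI genes COL6A1 and COL6A2 lay at least 2-fold above both controls, as did 1.03% of all genes. COL6A1 was at 293 TPM against 115 and 115 TPM and COL6A2 at 365 TPM against 132 and 158 TPM. S100A4, a calcium-binding protein gene linked to motility, lay at least 2-fold below both controls in sgALKBH5, as did 0.482% of all genes. It was at 10.9 TPM there against 22.8 and 55.4 TPM. CD44, a hyaluronan receptor gene, was at 1337, 789, 1058 and 1396 TPM, and SPARC at 2215, 909, 635 and 1742 TPM. In this list 6 of 14 genes lay at least 2-fold lower in control 2 than in control 1, against 4.5% of all genes, and 1 (S100A4) at least 2-fold higher, against 1.91%.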

How the data were processed

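Each library has a column of expected counts and a column of TPM in the table that the authors made. RSEM, StringTie 1.3.1, HISAT2 2.1.0, fastp 0.18.0 and the build GRCh38.p14 stand in the submitters' processing notes, without the role of each. The deposited expected counts carry no scaling, and 10.6% to 12.7% of them in a library are not whole. The authors scaled TPM to the same sum in each library, per the file headers and values. Of rows sharing a symbol the one highest in mean TPM was taken. Annotation release, strand setting and read length are not given in the sources used here. Nothing says that the controls came from separate cultures, so p-values measure only the spread between these samples, which may be technical.

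The members and gene lists were chosen with earlier results of these data known. Counts were rounded and fitted over all genes with edgeR 4.0.16 (R 4.3.3, TMM, filterByExpr, quasi-likelihood test, Benjamini-Hochberg adjustment at 0.05), with all 4 libraries in 3 groups. The spread comes from the 2 controls, with 1 residual degree of freedom, and each knockout is assumed to vary like them. The script was tested on simulated data. A standard error is the log2 fold change over the root of the F statistic. DESeq2 1.42.0 and limma 3.58.1 were alternatives. A rule without a test asked for a difference of at least 1 in log2(TPM + 1), with 1 sign against each control, in genes averaging at least 1 TPM. Differences on this scale understate those of low genes. List members named are the 2 with the highest mean TPM and those past the 2-fold rule. Added after their values were seen were SNAI2, ZEB1, ZEB2 and the genes under other observations. Windows of 100 and 50 bases of the longest coding transcript were matched to all other GENCODE release 29 transcripts. Positions and start windows are from RefSeq, GRCh38.p14, joined by symbol, and 2 of 7 members had a window. Of the epithelial state genes, 1 is not reported here and was left out of the list.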

Additional observations from a re-analysis of the deposited data

How the results depend on the processing

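The members at least 2-fold below both controls in sgPKA numbered 4 under every pseudocount, scaling and TPM minimum tried, and 4 to 5 with a control left out. In sgALKBH5 members at least 2-fold away on either side numbered 0 under the same settings and 0 to 2 with a control left out, the 2 being KRT80 and KRT81, which lay above control 2. With either control left out, genes at least 2-fold away numbered 668 to 1135 for sgPKA (283 with both) and 301 to 974 for sgALKBH5 (176 with both), and without control 1 the sgPKA genes were 401 higher and 267 lower. With log2(TPM + 0.1) these totals were 605 and 288, and with a minimum of 5 TPM the sgALKBH5 total was 100. The Wald test of DESeq2 called 114 genes for sgPKA and 33 for sgALKBH5 where edgeR called 0. The cause of these changes was not tested. Of the log2 fold changes of single members, 3 changed sign, namely VIM in sgPKA without control 1 (-0.039, and 0.077 without control 2), and KRT80 (-0.19) and KRT81 (-0.032) in sgALKBH5 without control 2 (1.38 and 2.08 without control 1). Size factors of DESeq2, no count filter and a fit of only 3 libraries left all 12 of these values with their direction. A test of all genes without 1 control was not run, since no residual degree of freedom remains. No paired analysis was possible because each knockout has 1 library and replicate numbers exist only for the controls. Depth limits KRT19, and KRT7 in sgPKA.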

Other observations

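Some junction, adhesion and matrix genes also differed between the controls, and were chosen here after their values were seen. JUP, which encodes plakoglobin, a link between desmosomal cadherins and keratin filaments, was at 29.3 TPM in control 1 and 0.461 TPM in control 2, against 0.17 TPM in sgPKA and 22.9 TPM in sgALKBH5. DSP, the gene of desmoplakin, was at 11.3, 3.09, 2.38 and 13.3 TPM in the same libraries. The mesenchymal cadherin gene CDH11 was at 75.6, 0.337, 0 and 19.1 TPM, and N-cadherin (CDH2) at 73.9, 19.2, 26.6 and 63.4 TPM. The fibronectin gene FN1 was at 1029.5, 118, 219.96 and 745 TPM, and the transcription factor gene FOXC2 at 12.3, 2.45, 4.46 and 15.0 TPM. In all 6 genes control 1 and sgALKBH5 were higher than control 2 and sgPKA, which was also so for KRT7, KRT80 and KRT81. The choice of genes fixed this in advance, and the share of all genes with this split was not counted. Other genes of the same lists split the opposite way, such as LMNA and ZEB1, given above. ACTA2 did so too, at 37.7, 64.8, 79.4 and 32.7 TPM in the same libraries.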
